A study of Zea mays with 10 samples.

Results

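Between 6 and 7 days after pollination (DAP), 223 of the 45953 genes in the count tables passed from near silence to clear expression in maize endosperm. They were chosen by their counts in the replicated libraries, as the genes with at most 5 counts in each of 3 endosperm libraries at 6 DAP and at least 0.5 CPM (the count divided by the library's total, times 1000000) in each of 3 endosperm libraries at 7 DAP. A limit of 5 counts equals 0.206 to 0.308 CPM in the 6 DAP libraries, and 0.5 CPM equals 7.96 to 10.1 counts in the 7 DAP libraries. The mirror rule, with at least 0.5 CPM at 6 DAP and at most 5 counts at 7 DAP, found 15 genes. The members' difference between 7 and 6 DAP in these 6 libraries was what chose them, so it is given below as a description. Their behaviour was then followed in 4 further libraries that the rule did not use.

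All samples were wild-type B73, the maize inbred line of the reference genome, grown in a greenhouse. The study set out to follow endosperm differentiation at the level of single cells, and these bulk RNA-seq libraries served to compare stages and to check the effect of turning the tissue into cells. The groups used here were 7 DAP endosperm (3 libraries), 6 DAP endosperm (3 libraries), protoplasts of 7 DAP and of 6 DAP endosperm (1 library each), and undigested endosperm of 7 DAP and of 6 DAP (1 library each). Protoplasts are cells freed of their walls, here by cellulase, macerozyme and pectolyase, and undigested endosperm is the same kind of tissue without that step. RNA came from pools of endosperms, so a library is an average over kernels and cell types. The extraction text shared by all samples names endosperms of 6, 7 and 8 DAP, while the age label gives each sample a single stage, which is used here. The labels do not say whether the single libraries share ears with the replicated ones. In bulk RNA, fewer cells of a type and less RNA per cell cannot be told apart.

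The endosperm is the nutritive tissue of the cereal seed. The paper places these days after cellularization, between early and late differentiation. Aleurone, basal transfer, embryo-surrounding and immature starchy cells are already present by then, and the filling stage follows. Zeins, the storage proteins of maize, are made in starchy endosperm cells and are encoded by the alpha, beta, gamma and delta families. MADS-box proteins are transcription factors best known from flower organ and ovule identity. Jasmonate-related, detoxifying and cell wall genes are known in many plants to respond to wounding or wall damage.

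The replicated libraries held 15911047 to 24311056 counts and the single ones 22234742 to 30203337. Every replicate pair differed by more than sampling noise, with a chi-square per gene of 1.67 to 3.58. Markers of the aleurone layer, basal endosperm transfer layer, starchy endosperm and embryo-surrounding region were present in all 10 libraries. Of 28 marker genes, 1 was at 0 in any library, namely the member ZMM2.

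The set ranged from 0.550 to 179 CPM in the mean of the 7 DAP libraries, with a median of 1.21 CPM. Most members were weakly expressed, with 137 at 1 CPM or more, 29 at 5 CPM or more and 4 at 50 CPM or more. The 10 most abundant members held 54.5% of the summed CPM of the set. Summed over all members, expression was 1060, 1006 and 1007 CPM in the 7 DAP libraries, against 15.9, 16.9 and 18.0 CPM in the 6 DAP libraries. At 6 DAP, 33 members were at 0 in all 3 libraries, 79 had 1 to 3 counts over the 3 libraries together and 111 had more, up to 14. The edgeR quasi-likelihood test of 7 against 6 DAP kept 211 members and called 203 of them higher (adjusted p under 0.05 and log2 fold change over 2), where 2.54% of the 21486 genes tested were called higher and 0.451% lower, a contrast that the choice of members fixed.

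**Figure D1:**
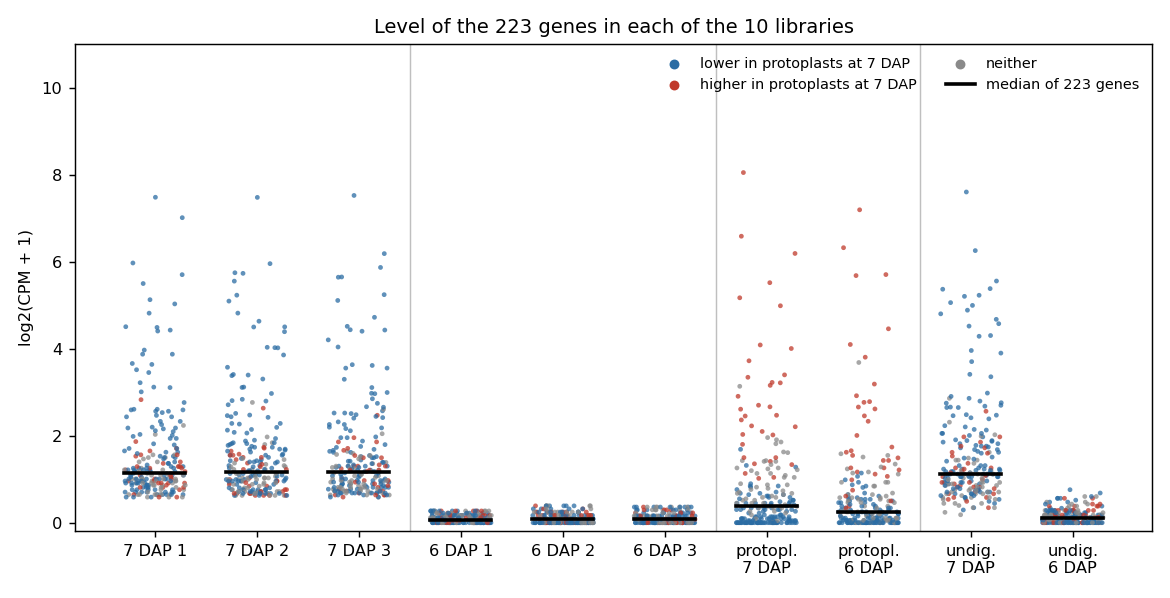
Level of each of the 223 genes, as log2(CPM + 1), in the 3 libraries of 7 DAP endosperm, the 3 of 6 DAP endosperm, and the single libraries of protoplasts and undigested endosperm. Points are genes, coloured by their 7 DAP protoplast level relative to undigested endosperm, and black bars are medians over the genes, which are near 0 at 6 DAP by the rule, while the protoplast libraries split into a low and a high group.

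The most abundant member was Zm00001d019035, for which the tables give no name. It had 177, 177 and 182 CPM in the 7 DAP libraries, and 11 counts in all 3 libraries of 6 DAP together, a 947-fold ratio with a 95% counting interval of 529 to 1898. Its spread between 7 DAP replicates was the lowest of the set, with a coefficient of variation (CV) of 1.76%. IDP2455 came next, with 128, 52.6 and 71.7 CPM in the 7 DAP libraries, and had 1 count at 6 DAP. The first 7 DAP library stood above the other two for this gene, and its CV of 46.6% was the largest among members with a mean of at least 2 CPM. The other members of that rule were Zm00001d044605, Zm00001d008189, Zm00001d014816 and Zm00001d049476, with CVs of 32.0%, 30.9%, 30.6% and 25.7%. The median CV was 7.26% over the 29 members at 5 CPM or more and 18.0% over the weaker ones, beside 4.36% over 16055 other genes at 5 CPM or more and 18.1% over 5391 other genes between 0.5 and 5 CPM.

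Next in abundance were umc1735, Zm00001d015019 and Zm00001d003281, with means of 59.9 ± 2.31, 50.7 ± 1.51 and 46.3 ± 2.41 CPM at 7 DAP (SD, n = 3) and 4, 2 and 1 counts over the 6 DAP libraries. PME34, named as a pectin methylesterase, an enzyme class that modifies pectin in the cell wall, averaged 34.6 ± 1.94 CPM at 7 DAP (SD, n = 3) and had 5 counts at 6 DAP. Zm00001d035558 averaged 33.8 ± 2.46 CPM at 7 DAP (SD, n = 3). These 5 genes varied little between replicates, and no 7 DAP library overlapped any 6 DAP library, as the rule requires of every member.

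Some members came from a stretch of nearly consecutive gene identifiers. Taking identifiers at most 5 apart, 25 members (11.2%) fell into 9 runs, the longest being 5 members between Zm00001d048809 and Zm00001d048817 and 5 members between Zm00001d048847 and Zm00001d048852. The second run contains FL4, an alpha zein, and Z1A-3, another alpha zein with the identifier between its first members, stayed outside the set with 8, 6 and 2 counts in the 6 DAP libraries. Reads that map to several places were not counted, so members of such near-identical families are measured only through their unique stretches, and their levels are uncertain.

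At the limits of the rule the choice rests on a few reads. The members closest to the 7 DAP limit, Zm00001d009134, Zm00001d015139 and Zm00001d017682, had 8 counts in the first 7 DAP library (0.503 CPM), and the closest genes outside, Zm00001d017095, Zm00001d033573 and Zm00001d038984, had 10 counts in the second (0.495 CPM). At the 6 DAP limit, 42 members had 5 counts in their highest library, among them Zm00001d038642, Zm00001d041678 and Zm00001d047779 with 14 counts in total, and 48 genes that met the 7 DAP limit missed with 6 counts, among them Zm00001d005740, Zm00001d014852 and Zm00001d022204. Without the deepest library, the first 6 DAP replicate, the rule would have taken 346 genes.

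The first question for the single libraries was whether undigested endosperm, which the rule did not use, showed the same difference between stages. It did for every member in direction: all 223 were higher in undigested endosperm at 7 DAP than at 6 DAP. The same 2 limits, applied to the undigested pair, were met by 169 members (75.8%), where 1.22% of all genes met them. The ratio of counts was over 2-fold with a 95% interval above 1 for 196 members (87.9%) and was below 1 for none, against 8.79% higher and 1.72% lower among the 21008 genes with at least 0.5 CPM in each 7 DAP replicate, which serve for comparison throughout. A fit of all 10 libraries with edgeR, added after the data had been seen, called 162 members higher and none lower (adjusted p under 0.05, log2 fold change over 1), where it called 5.79% of 24368 genes higher and 1.87% lower. That fit assumes that a lone library varies like the replicated ones. Its biological coefficient of variation was 4.15%, against 19% in a fit of the 4 single libraries alone, where any difference in stage change between preparations counts as spread, and variation between repeated preparations was not measured. The intervals of ratios between single libraries are exact, rest on 1 library a side and cover counting error only, and those between the replicated stages sum 3 libraries a side and leave out the spread between them. The summed CPM of the members was 1083 in undigested endosperm at 7 DAP and 26.4 at 6 DAP, both above the highest replicated library of the stage, with 1060 and 18.0 CPM. Member by member, the undigested 7 DAP library lay above the range of the 3 replicates for 71 members, below it for 78 and within it for 74.

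Protoplasts gave another picture. At 7 DAP, 131 of the 223 members (58.7%) had lower counts per total in protoplasts than in undigested tissue, past 2-fold with the interval below 1, and 35 (15.7%) were higher by the same measure. Among the 21008 genes for comparison, 18.8% were lower and 14.1% higher. The 10-library fit called 107 members lower and 31 higher, where it called 11.1% of all genes lower and 20.5% higher. The median difference of the members, protoplasts minus undigested at 7 DAP, was -0.58 on the log2(CPM + 1) scale, beside -0.30 over the 21008 genes for comparison. The median depended on the pseudocount and was -0.93 with 0.5 and -1.59 with 0.1 in place of 1.

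The members lower in protoplasts included most of the abundant ones. All of the 20 most abundant members, and 47 of the 50 most abundant, were lower in protoplasts at 7 DAP, against 84 of the other 173, whose lower counts give wider intervals. Together the 131 lower members had 777 counts in protoplasts at 7 DAP and 21689 counts in undigested endosperm at 7 DAP, and 47 of them had no count in protoplasts. The 35 higher members had 20931 counts in protoplasts and 1033 in undigested endosperm. The summed CPM of the set was 776 in protoplasts at 7 DAP, of which the 35 higher members made up 693 CPM, against 1083 CPM in undigested endosperm.

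**Figure D2:**
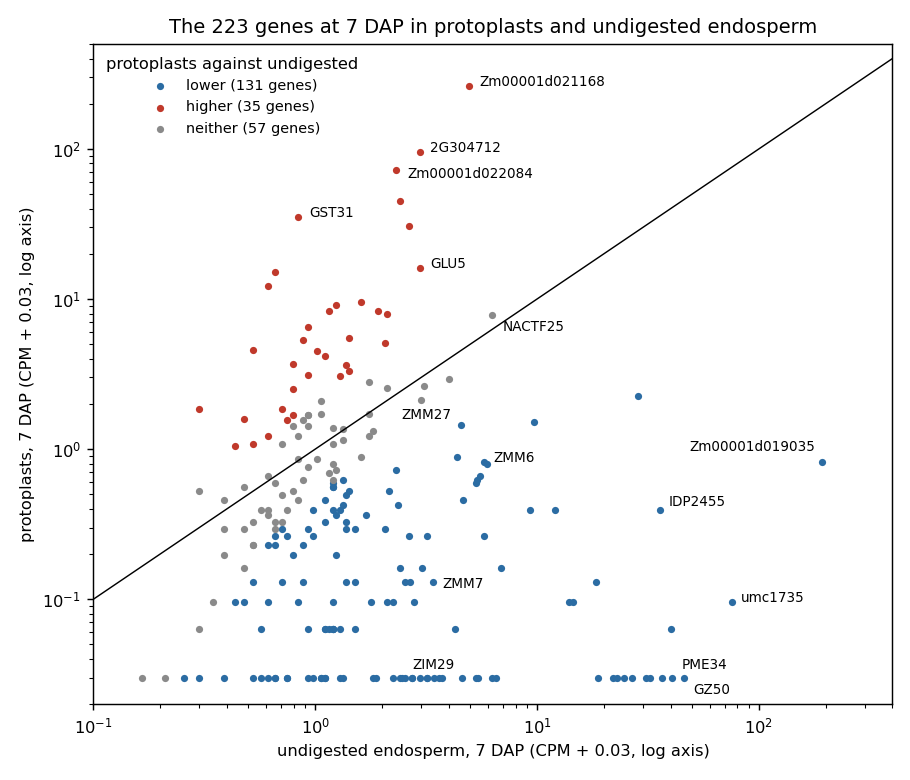
CPM of each of the 223 genes at 7 DAP in protoplasts (vertical axis) and undigested endosperm (horizontal axis), both with 0.03 CPM added and on log axes. The diagonal marks equal levels, the lowest row of points holds genes with no count in protoplasts, and the 131 lower genes include every gene above 10 CPM in undigested endosperm.

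The named abundant members were at or near 0 in protoplasts. Zm00001d019035 had 24 counts in protoplasts at 7 DAP, against 4290 in undigested endosperm, 243-fold lower with a counting interval of 163 to 379. IDP2455 had 11 counts in protoplasts, against 796 in undigested endosperm, and umc1735 had 2, against 1673. Several others had no count at all in protoplasts, so that their fold is a bound against 3 counts in that library. PME34, with 903 counts in undigested endosperm, was at least 409-fold lower, Zm00001d015019 with 810 counts at least 367-fold, and Zm00001d035558 with 686 counts at least 311-fold. Zm00001d003281 had 1 count in protoplasts and 894 in undigested endosperm, a ratio with a counting interval of 217 to 48020. Zm00001d026109, the tenth in abundance, kept 67 counts in protoplasts, against 634 in undigested endosperm.

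Both zein members were without a count in 7 DAP protoplasts. GZ50, the 50 kDa gamma zein, had 27.1, 27.2 and 25.4 CPM at 7 DAP, against 4, 4 and 0 counts at 6 DAP. In the single libraries GZ50 had no count in protoplasts at 7 DAP, against 1022 in undigested endosperm, at least 463-fold lower, and at 6 DAP it had 6 counts in protoplasts and 10 in undigested endosperm. FL4, the alpha zein of the floury4 locus, had 13.6, 15.3 and 15.4 CPM at 7 DAP, against 5, 2 and 3 counts at 6 DAP. FL4 had no count in protoplasts at 7 DAP, against 487 in undigested endosperm, at least 221-fold lower. The 5 remaining zeins of the list, which was picked by symbol, were above the 6 DAP limit. All 7 were called higher at 7 DAP in the replicated libraries, where 2.54% of the genes tested were. For GZ50 and FL4 the rule fixed that direction. The summed level of the 7 at 7 DAP was 9.44 CPM in protoplasts, against 2008 CPM in undigested endosperm. In the added 10-library fit all 7 were lower in protoplasts at 7 DAP. Their median log2 fold change of -11.8, beside -0.05 over all genes tested, was the value of FL4. As FL4 had no count in protoplasts, that size comes from the fit and is not a measured fold. Each of the 10 members of the 2 longest runs of close identifiers was also lower in protoplasts at 7 DAP. Among them were Zm00001d048849 and Zm00001d048850 with no count in protoplasts, against 718 and 597 in undigested endosperm.

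Starchy endosperm markers, among them the zein ZP27, were also lower in protoplasts, at 7 DAP and at 6 DAP. The 5 markers ZP27, TAR1, SH2, DE18 and FL3 summed to 1614 CPM in protoplasts at 7 DAP, against 7637 CPM in undigested endosperm, and to 1856 CPM in protoplasts at 6 DAP, against 5223 CPM in undigested endosperm. The stage-covariate edgeR fit of the 4 single libraries called 4 of the 5 lower in protoplasts, where 7.37% of all genes were called lower and 18.4% higher, and none of the 5 was at 0. Markers of the embryo-surrounding region summed to 785 CPM in protoplasts at 7 DAP, against 2289 CPM in undigested endosperm, and all 5 were called lower. Markers of the aleurone layer summed to 5754 CPM in protoplasts at 7 DAP, against 9833 CPM in undigested endosperm, with none of 3 called. Those of the basal transfer layer summed to 1365 CPM at 7 DAP, against 1144 CPM, with 1 of 6 called lower. Their sum at 6 DAP was lower in protoplasts, with 1123 CPM, against 3107 CPM. The 3 markers of the endosperm adjacent to the scutellum summed to 11.1 CPM in protoplasts at 7 DAP, against 96.5 CPM in undigested endosperm, with 2 called lower. The 3 embryo markers summed to 208 CPM, against 475 CPM, with none called. At 6 DAP the embryo-surrounding markers summed to 94.9 CPM in protoplasts, against 410 CPM, and the aleurone markers to 4283 CPM, against 5551 CPM. Those adjacent to the scutellum summed to 11.6 CPM, against 34.0 CPM, and those of the embryo to 76.2 CPM, against 55.5 CPM. The calls come from the fit over both stages. The part of these cell types in the members' levels was not tested.

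Several MADS-box genes were in the set. The list holds 10 MADS-box genes picked by symbol, with earlier results known, and does not stand for the whole family. Of these 10, 5 were members, namely ZMM6, ZMM27, ZAG2, ZMM7 and ZMM2, where 0.485% of all genes were members. In the replicated libraries 8 of the 10 were called higher at 7 DAP, where 2.54% of the genes tested were. For the 5 members the rule fixed that direction. ZMM6 had 5.03, 5.99 and 5.69 CPM at 7 DAP, against 4, 2 and 5 counts at 6 DAP, a 29.7-fold ratio with a counting interval of 16.4 to 60.1. ZAG2, which is known from carpels and ovules, had 5.03, 4.70 and 4.74 CPM at 7 DAP, against 3, 3 and 2 counts at 6 DAP, a 35.0-fold ratio with an interval of 17.5 to 81.8. ZMM27 had 4.90, 4.36 and 5.29 CPM at 7 DAP, against 0, 0 and 1 counts at 6 DAP. The 3 genes thus reached nearly the same level from nearly nothing. ZMM7 averaged 4.04 ± 0.24 CPM and ZMM2, a relative of AGAMOUS, 2.57 ± 0.39 CPM at 7 DAP (SD, n = 3), with 6 and 2 counts over the 6 DAP libraries.

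While the zein members GZ50 and FL4 had no count in 7 DAP protoplasts, 3 of these MADS-box genes kept 24 to 43 counts there. Of the zeins outside the set, ZP27 had 269 counts there, ZP15 and DZS18 had 8 each, and ZP2 and Z1A-3 had 0. At 7 DAP ZMM27 had 43 counts in protoplasts, against 100 in undigested endosperm, 3.16-fold lower with a counting interval of 2.19 to 4.63. ZAG2 had 26 counts in protoplasts, against 96 in undigested endosperm, 5.02-fold lower with an interval of 3.22 to 8.06. ZMM6 had 24 counts in protoplasts, against 128 in undigested endosperm, 7.25-fold lower with an interval of 4.66 to 11.7. ZMM7 and ZMM2 fell to 3 and 2 counts in protoplasts, against 75 and 49 counts in undigested endosperm. All 5 were called lower in the 10-library fit, the largest adjusted p being 0.0015 for ZMM27. The fit of the 4 single libraries with stage as a covariate dropped ZMM7 and ZMM2 as too low and called ZMM6 alone of the other 3 (edgeR, adjusted p of 0.048, against 0.15 for ZAG2 and 0.76 for ZMM27). Within protoplasts, ZMM27, ZAG2 and ZMM6 had 43, 26 and 24 counts at 7 DAP, against 11, 3 and 6 at 6 DAP. The ratio was 3.44-fold for ZMM27 with a counting interval of 1.74 to 7.39, 7.62-fold for ZAG2 with an interval of 2.34 to 39.3, and 3.52-fold for ZMM6 with an interval of 1.40 to 10.5. The stage fit of the 4 single libraries with digestion as a covariate called none of the 3 (edgeR, adjusted p of 0.36, 0.33 and 0.34). ZAG2, ZMM2 and ZMM17 also formed a list of maternal ovule genes, which was picked by symbol for this report and is not a list of the study. These 3 summed to 11.1 to 12.7 CPM at 7 DAP, against 0.493 to 1.19 CPM at 6 DAP, and whether maternal tissue took part in them was not tested.

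**Figure D3:**
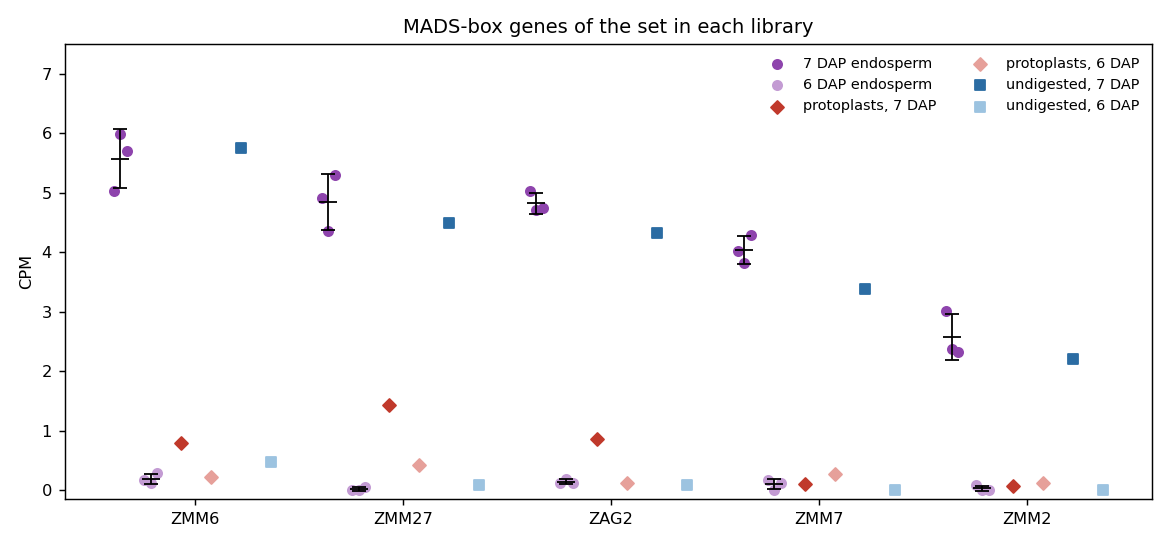
CPM of the 5 MADS-box members in each library. Circles are the 3 replicates with mean and SD in black, diamonds are protoplasts and squares are undigested endosperm, and the 7 DAP protoplast value of each gene lies below all 3 replicates and below undigested endosperm at 7 DAP.

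Further members with names in the supplementary tables were also lower in protoplasts. At 7 DAP, with counts in protoplasts set against undigested endosperm, these were MTL1 (0 against 139), ZIM29 (0 against 101), a ZIM-domain transcription factor, AAAP36 (1 against 94), a member of the amino acid permease family, and A1 (4 against 67), the dihydroflavonol reductase of the anthocyanin pathway. SACD3, a stearoyl-ACP desaturase of fatty acid synthesis, had 2 counts in protoplasts, against 61 in undigested endosperm. GLP2, a germin-like protein, had 23, against 132, ZNOD1 4, against 153, csu1138 11, against 267, and pco147721a 13, against 102. IDDP10, a zinc finger protein of the INDETERMINATE domain family, had no count in protoplasts, against 70 in undigested endosperm. HB84, a homeobox factor, was just inside the 7 DAP limit, with 0.566, 0.594 and 0.605 CPM at 7 DAP and no count at 6 DAP, and had 0 counts in protoplasts, against 29 in undigested endosperm.

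The 35 members higher in protoplasts at 7 DAP were 15.7% of the set, a share near the 14.1% of the genes for comparison. Some of them were far higher, and already so at 6 DAP. Zm00001d021168, annotated by homology as UDP-glycosyltransferase 74B1, an enzyme class that attaches sugars to small molecules, had 6.10, 5.20 and 4.54 CPM in 7 DAP endosperm, against 0, 5 and 0 counts at 6 DAP. It had 7949 counts in protoplasts at 7 DAP, against 109 in undigested endosperm, 53.7-fold higher with a counting interval of 44.4 to 65.5, and 3850 counts in protoplasts at 6 DAP, against 2 in undigested endosperm. This gene had the highest level of all members in either protoplast library. GST31, a glutathione S-transferase of the detoxifying kind, had 1056 counts in protoplasts at 7 DAP, against 18 in undigested endosperm, 43.2-fold higher with an interval of 27.2 to 73.2. At 6 DAP GST31 had 344 counts in protoplasts, against 0 in undigested endosperm.

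The same held for 2G304712, with 2865 counts in protoplasts at 7 DAP, against 65 in undigested endosperm, and 2093 in protoplasts at 6 DAP, against 3 in undigested endosperm. Zm00001d022084, annotated as a B12D protein, had 2170 counts in protoplasts at 7 DAP, against 51 in undigested endosperm. Zm00001d046226 had 1351 counts in protoplasts at 7 DAP, against 53 in undigested endosperm. These 5 genes showed the largest increases in the comparison of protoplasts with undigested endosperm that took stage as a covariate (edgeR, log2 fold changes of 5.64 to 7.03, adjusted p of 0.0023 to 0.0067). In the replicated libraries their means at 7 DAP were modest, between 1.34 and 5.28 CPM. GLU5, named after its values were seen, had 482 counts in protoplasts at 7 DAP, against 65 in undigested endosperm, 5.46-fold higher with an interval of 4.21 to 7.19.

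At 6 DAP more members were expressed in protoplasts than in undigested endosperm, though most stayed low in both. In protoplasts at 6 DAP, 61 members reached 0.5 CPM and 121 had at most 5 counts, with a median of 0.188 CPM. In undigested endosperm at 6 DAP, 5 members reached 0.5 CPM and 193 had at most 5 counts, with a median of 0.0864 CPM. By the count interval, 66 members (29.6%) were higher and 8 (3.59%) lower in 6 DAP protoplasts than in undigested tissue, beside 15.1% and 13.0% of the 21008 genes for comparison. The rule kept members near 0 at 6 DAP, so few could be lower in protoplasts. The 21008 genes had no such limit, and the shares are not a like comparison. Of the 35 members higher in protoplasts at 7 DAP, 31 were also higher at 6 DAP, with no such share over other genes to set beside it. Summed over the set, protoplasts at 6 DAP had 509 CPM, against 26.4 CPM in undigested endosperm.

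Between the protoplast libraries themselves the stage difference was small for most members. By the count interval and 2-fold, 51 members (22.9%) were higher and 8 (3.59%) lower at 7 DAP than at 6 DAP, beside 4.61% and 1.25% of the 21008 genes for comparison. The 10-library fit called 31 higher and 6 lower, where it called 4.24% of all genes higher and 0.776% lower. The median difference was 0.10 on the log2(CPM + 1) scale, against 1.02 in undigested endosperm, and with a pseudocount of 0.1 it was 0.41, against 2.87. The 2 limits of the rule were met by 7 members (3.14%) in the protoplast pair, where 0.459% of all genes met them. The difference between the stage changes, protoplasts minus undigested, was tested in the 10-library fit, which called 71 members lower and none higher, where it called 3.0% of all genes lower and 2.9% higher. At an unadjusted p under 0.05, 93 members were lower and 1 higher, beside 15.9% and 14.5% of all genes. No count in either protoplast library was found for 29 members, and the fit called 0 of these. The rule chose members for a rise in endosperm without digestion, and undigested endosperm repeated that rise for every member. The difference between the stage changes therefore leaned towards lower from the start. All genes carried no such choice, so the shares of members and of all genes are not a like comparison.

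**Figure D4:**
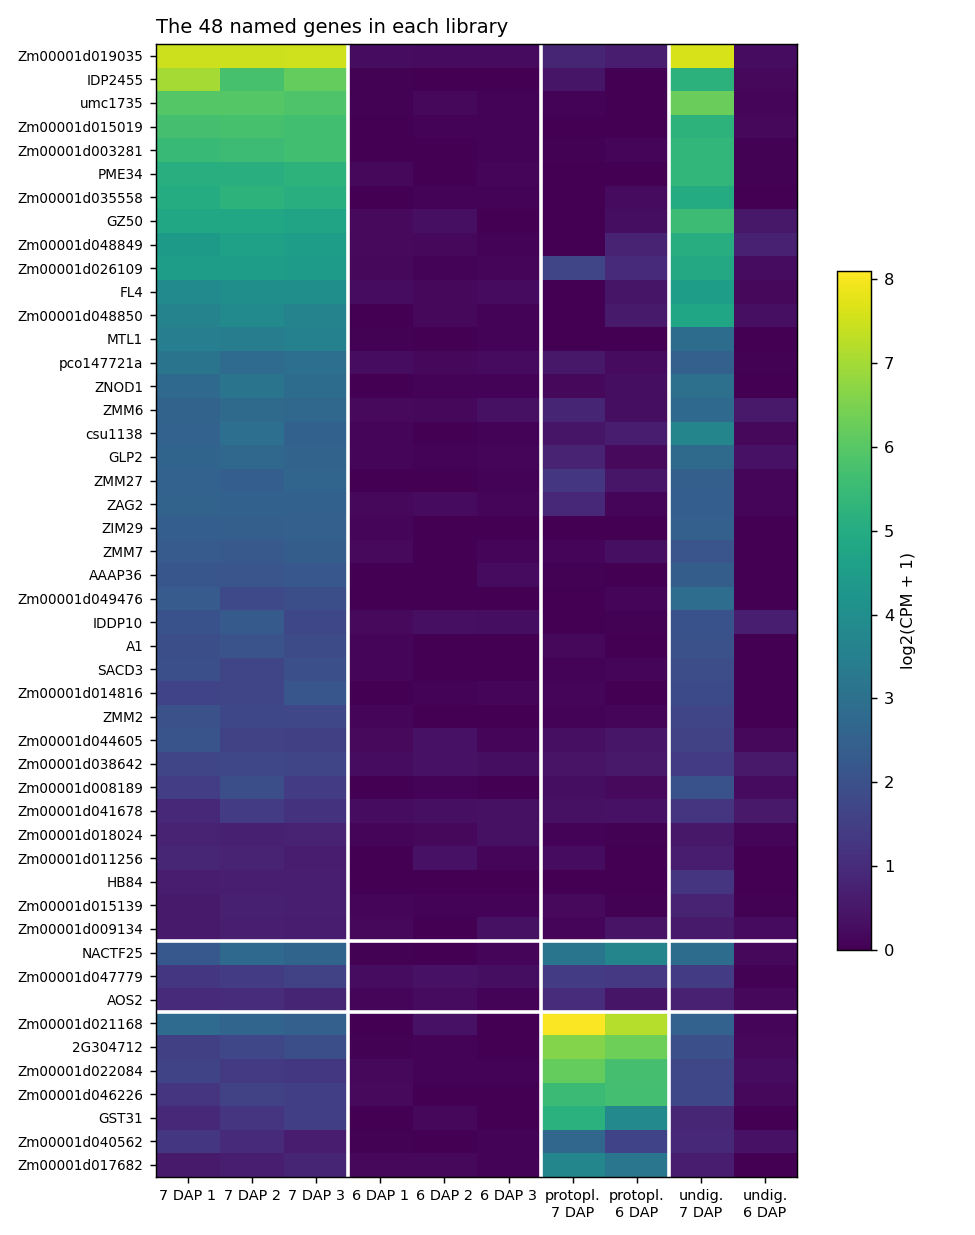
Level, as log2(CPM + 1) in colour, of the 48 members named by rule, in rows, across the 10 libraries, in columns. White lines separate the groups of libraries and, from top to bottom, the members lower, in neither class and higher in protoplasts at 7 DAP, and the top rows are bright at 7 DAP in the replicated and undigested libraries and dark in protoplasts.

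NACTF25, a NAC transcription factor, belonged to neither group. It had 3.71, 5.79 and 5.09 CPM at 7 DAP, against 1, 0 and 2 counts at 6 DAP. In protoplasts it had 235 counts at 7 DAP and 314 at 6 DAP, while undigested endosperm had 139 counts at 7 DAP and 3 at 6 DAP. Its level at 7 DAP was 1.24-fold higher in protoplasts with an interval of 1.00 to 1.55, short of the 2-fold limit. Within protoplasts it was 1.52-fold lower at 7 DAP than at 6 DAP, with a counting interval of 1.28 to 1.81.

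The design fixed for the 4 single libraries gave fewer calls. With stage as a covariate, taking 7 and 6 DAP as replicates of each other, edgeR kept 104 members and called 28 higher and 4 lower in protoplasts, where 18.4% of 22799 genes were higher and 7.37% lower. The filter dropped 119 members, of which 99 were lower in protoplasts at 7 DAP by the count interval and none higher, so that the 104 are not a fair sample of the set. The 4 called lower were GZ50, ZMM6, GLP2 and IDDP10, with log2 fold changes of -6.99, -2.06, -2.22 and -6.08 and adjusted p of 0.041, 0.048, 0.045 and 0.016. With DESeq2 only IDDP10 of these 4 was still called, the other adjusted p being 0.17 for GZ50, 0.11 for ZMM6 and 0.12 for GLP2. DESeq2 called 26 members higher and 13 lower, beside 15.2% and 5.76% of 24848 genes, and edgeR without the filter 27 higher and 33 lower, beside 13.4% and 5.33% of 31369 genes. With digestion as a covariate, the same fit of 7 against 6 DAP called 0 members in either direction, where 0.0% of all genes were called. At an unadjusted p under 0.05 it had 40 members higher and none lower, beside 7.21% and 4.58% of all genes, and DESeq2 called 6 of 76 members higher and none lower, beside 0.807% and 0.106% of 20690 genes. Without the filter edgeR called 6 of 223 members higher and none lower, beside 0.14% and 0.00319% of 31369 genes.

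Few members fell into the hormone, cell cycle and regulator lists, where the set as a whole was 0.485% of all genes and 2.54% of the genes tested were called higher at 7 DAP. AOS2, an allene oxide synthase of jasmonate biosynthesis, was the only member among 51 jasmonate biosynthesis genes, of which 2 were called higher at 7 DAP. It had 1.01, 1.04 and 0.806 CPM at 7 DAP, against 2, 3 and 1 counts at 6 DAP, and 32 counts in protoplasts at 7 DAP, against 15 in undigested endosperm, an interval of 0.826 to 3.12-fold that includes 1. AOS2 was also the member among 32 jasmonate response genes, of which 4 were called higher. Zm00001d040562, in the ABCB auxin transporter list, had 161 counts in protoplasts at 7 DAP, against 19 in undigested endosperm, 6.24-fold higher with an interval of 3.87 to 10.6. Zm00001d018024, in the PIN auxin transporter list, had 2 counts in protoplasts, against 10 in undigested endosperm. Zm00001d011256 was the only member among 306 G2/M genes, and no member was among the 138 S phase genes.

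Among 277 transcription factors whose binding the study profiled, the members were ZAG2 and HB84, and 5 of the 232 tested were called higher at 7 DAP, a share near the 2.54% of all genes. Of 253 genes the study lists as targets of the transcription factor O11, 6 were members, among them NACTF25, ZIM29 and IDDP10, and none of the 26 BZIP22 or 23 MRP1 targets was. O11 itself, with O2, PBF1, NKD1 and NKD2, was not a member, and 1 of these 5 filling factors was called higher at 7 DAP. PME34 was the member among 7 pectin methylesterase genes and the 1 called higher of 6 tested. No globulin, oil body, benzoxazinoid or aquaporin gene of the lists was a member, and 2 of 2, 4 of 5, 1 of 3 and 3 of 4 of those tested were called higher at 7 DAP. The other 15 hormone lists held no member, and 8 of their 172 tested entries were called higher and 2 lower at 7 DAP.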

How the data were processed

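Bulk RNA-seq of B73 endosperm gave 10 libraries. The authors trimmed the reads with Trimmomatic 0.39, used STAR for alignment to the B73 genome and featureCounts 2.0.1 to assign uniquely mapped reads, and deposited these raw gene counts (45953 genes) with no scaling. The labels name a SMARTER library kit and the methods an Illumina one. Multi-mapping reads are not in these counts.

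From the counts, CPM by library total was used for levels, and edgeR 4.0.16 in R 4.3.3 (TMM, filterByExpr, quasi-likelihood F test, Benjamini-Hochberg adjustment) for tests over all genes. Calls between the replicated stages needed a log2 fold change over 2, other calls over 1, each with an adjusted p under 0.05. Ratios of 2 single libraries carry exact (Clopper-Pearson) 95% intervals for counting error only, and folds against 0 counts are bounds against 3 counts. In a test on simulated data, 200 of 200 genes changed by a log2 of 3 were recovered between the replicated stages with 9 false calls among 21249 genes. For a log2 of 2, 197 of 200 were recovered in the stage fit of the single libraries with 7 false calls among 22440, and 199 of 200 in the protoplast fit with 12 false calls among 22473. The simulation changed only genes above a set mean count, gave all genes the same spread and held no effect besides the simulated one. Its recovery therefore does not carry over to the weakly expressed members or to the real single libraries. Replicates were separate libraries, and p-values between the replicated stages measure the spread between them. In the fits of the single libraries alone, the other stage or preparation stands in for a replicate. Their p-values therefore measure against the difference in stage change between preparations. In the fit of all libraries, the spread comes from the replicated endosperm libraries only.

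Named genes are the 10 most abundant members, members of a list or marker set, the 20 most abundant with a name not built from the gene number, the 5 largest protoplast changes in each direction among those called, the 5 largest CVs at 2 CPM or more, the 3 genes on either side of each limit, and the 5 most abundant members with opposite stage changes in protoplasts and undigested endosperm. A few further members were named after their values were seen. The members, lists and tests were chosen with earlier results of these data known. Alternatives covered limits, scaling, filters, DESeq2 1.42.0, the replicate block, fold limits, pseudocounts and left-out replicates. Names come from the study's supplementary tables, since 0 members matched the RefSeq gene table, and promoter motifs were not analysed here. A further gene is not reported here.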

Additional observations from a re-analysis of the deposited data

Results flagged for a closer look

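For 7 named members the stage difference ran in opposite directions in protoplasts and in undigested endosperm, with both exact count intervals excluding 1. With 1 library a side, the difference was not tested across replicates, and most of it rests on few counts at 6 DAP. On the log2(CPM + 1) scale, 7 minus 6 DAP, Zm00001d035558 differed by -0.25 in protoplasts, where it had 0 and 5 counts, against 4.99 in undigested endosperm. GZ50 differed by -0.29 in protoplasts, with 0 and 6 counts, against 5.04 in undigested endosperm. FL4 differed by -0.46 in protoplasts, with 0 and 10 counts, against 4.34 in undigested endosperm.

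Zm00001d048849 differed by -0.81 in protoplasts, with 0 counts at 7 DAP and 20 at 6 DAP, against 4.30 in undigested endosperm. Zm00001d048850 differed by -0.58 in protoplasts, with 0 and 13 counts, against 4.47 in undigested endosperm. NACTF25 differed by -0.55 in protoplasts, against 2.68 in undigested endosperm, and Zm00001d046226 by -0.16 in protoplasts, with 1351 and 1333 counts, against 1.58 in undigested endosperm. Over the whole set, 13 members met this condition, and no share over all genes stands beside that count. Every member was higher at 7 DAP in undigested endosperm, so only a lower level at 7 DAP in protoplasts could meet it.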

How the results depend on the processing

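The size of the set follows its limits. It was 118 genes at 2 counts or fewer and 535 at 10 or fewer at 6 DAP, 516 at 0.25 CPM and 101 at 1 CPM at 7 DAP, and between 254 and 346 with a replicate left out. Between the replicated stages, members called ranged from 186 to 214 with a replicate left out, and all genes called higher from 533 to 649. No filter beyond 1 count gave 983 genes, at least 10 counts summed 954, a log2 fold change over 1 gave 1590 and the adjusted p alone 6067, beside 545. Replicate numbers did not pair the samples, with correlations of deviations of 0.07, 0.01 and -0.00 for equal numbers, and 1 of the 3 samples of 7 DAP was closest to its own number. The replicate block called 548 genes and 204 members higher, beside 545 and 203.

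In the single libraries, no filter and DESeq2 each called 6 members higher at 7 DAP, beside 0, and 33 and 13 members lower in protoplasts, beside 4. GZ50, ZMM6 and GLP2 were no longer called with DESeq2. Pseudocounts of 0.1 and 0.5 moved the median stage difference to 2.87 and 1.55 in undigested endosperm, beside 1.02, and to 0.41 and 0.18 in protoplasts, beside 0.10. They moved the median of protoplasts minus undigested endosperm to -1.59 and -0.93 at 7 DAP, beside -0.58, and to 0.53 and 0.23 at 6 DAP, beside 0.13. Chosen after seeing the data, TMM scaling gave 123 members lower and 40 higher in protoplasts at 7 DAP, beside 131 and 35, and 5 lower at 6 DAP, beside 8. The 10-library fit called 31 members higher at 7 DAP within protoplasts, beside 51. A left-out library could not be fitted in the single libraries, which have 1 per group. No median named here and no call of a named gene changed sign under these alternatives. The balance of members in protoplasts against undigested endosperm did depend on filter and fit. With stage as a covariate edgeR called 28 higher and 4 lower with the filter, and 27 and 33 without it. The median log2 fold change was 0.90 over the 104 members that fit kept, and -1.86 over all 223 in the 10-library fit at 7 DAP.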
